A study of Mus musculus with 6 samples.

Results

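The microRNAs (miRNAs) described here are miR-21, miR-142, miR-146a, miR-146b, miR-150, miR-155 and miR-223, which are known from immune cells and from microglia, the resident macrophages of the brain. They were chosen by name, whatever the species prefix, arm or pool of the assay, and were read by 13 of the 750 miRNA assays of a TaqMan OpenArray rodent panel. The samples were whole prefrontal cortex of untreated male mice aged 5 months. There were 3 mice of the inbred strain BTBR (genotype BTBR T+ Itpr3tf/J in the labels, which also give C57BL/6J as strain background for these mice) and 3 wild-type mice of the strain C57BL/6J. BTBR mice show social deficits and repetitive behaviour and are studied in autism research. The comparison asks which miRNAs distinguish their cortex from that of the control strain. Each mouse was 1 sample and each assay was run once per sample.

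A mature miRNA guides a silencing complex to messenger RNAs through its seed, the bases near its 5′ end, and lowers their output. MiR-146a and miR-146b are induced by NF-kB and restrain Toll-like receptor signalling through Irak1 and Traf6. MiR-155 is induced in activated macrophages and lymphocytes and promotes inflammatory responses, in part by lowering Socs1. MiR-142 is made in nearly all blood-derived cells, miR-223 in neutrophils and other myeloid cells, and miR-150 in mature lymphocytes, where it lowers Myb. MiR-21 is made in many cell types and is induced in reactive glia and after injury. In whole tissue RNA, fewer cells of a type and less RNA per cell cannot be told apart.

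The mouse sequences that these assays read are shown because miR-146a and miR-146b, compared below, are closely alike. Whether the miR-146a assay also reads miR-146b, or the reverse, was not tested. Of the 11 mature miRNAs named by the 13 assays, 10 were matched by name in RefSeq (GRCm38.p6). The capitals mark the seed, bases 2 to 8 from the 5′ end.
miR-146a-5p: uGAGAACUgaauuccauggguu
miR-146b-5p: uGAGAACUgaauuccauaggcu
miR-146b-3p: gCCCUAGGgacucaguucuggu
miR-142a-3p: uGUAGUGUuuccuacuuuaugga
miR-142a-5p: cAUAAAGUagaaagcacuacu
miR-21a-5p: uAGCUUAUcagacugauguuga
miR-21a-3p: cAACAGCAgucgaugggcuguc
miR-150-3p: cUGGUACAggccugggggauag
miR-155-5p: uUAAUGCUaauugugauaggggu
miR-223-3p: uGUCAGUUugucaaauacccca
These 10 sequences hold 9 seeds, and the one seed shared is that of miR-146a-5p and miR-146b-5p. The pair is the same at 20 of 22 bases. Counted from the 5′ end, with the base of miR-146a-5p given first, the differences are G18A and U21C, both outside the seed and near the 3′ end, where the reverse-transcription primer of a TaqMan miRNA assay anneals.

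The genes lie apart in the genome (GRCm38.p6), except that miR-21, miR-142 and miR-146a share chromosome 11. Mir146, the gene of miR-146a, is at chr11:43374397-43374461 and overlaps no other annotated gene, and Mir146b is at chr19:46342762-46342870 within the span of the long noncoding RNA Gm36493. Mir21a (chr11:86584067-86584158) lies within the span of the protein-coding gene Vmp1, and Mir142 (chr11:87756864-87756927) overlaps Mir142b. Mir155 (chr16:84714140-84714204) lies within its host Mir155hg, Mir223 (chrX:96242817-96242926) within F630028O10Rik, and Mir150 (chr7:45121757-45121821) overlaps no other annotated gene. For miR-21, miR-142, miR-146b and miR-150, both arms of the hairpin had an assay. The hairpins of miR-146b and miR-142 are shown with both mature arms in capitals, the 5p arm first.
Mir146b: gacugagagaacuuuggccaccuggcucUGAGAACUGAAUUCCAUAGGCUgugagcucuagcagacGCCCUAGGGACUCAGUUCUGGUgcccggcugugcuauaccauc
Mir142: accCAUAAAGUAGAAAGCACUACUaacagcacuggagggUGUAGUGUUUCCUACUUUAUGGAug

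The readout was the cycle threshold (Ct), the PCR cycle at which the signal crosses a set level. A lower Ct stands for more RNA, and 1 cycle was taken as a 2-fold difference. A Ct of 40 was read as undetermined, and a Ct under 10 was also treated as undetermined because the authors' normalized table keeps none. Assays differ in efficiency, so Ct values of different assays are not compared as levels. Between 347 and 404 of the 750 assays were detected in the BTBR samples, against 289 to 305 in the C57BL/6J samples. BTBR replicate 3 lay closer to the C57BL/6J samples than to the other BTBR samples. Over the normalized values of 189 assays, its Pearson r was 0.938 and 0.918 with those BTBR samples, against 0.945, 0.966 and 0.951 with the C57BL/6J samples. BTBR replicates 1 and 2 correlated with the C57BL/6J samples at 0.845 to 0.921. The sources used here do not say how the samples were spread over arrays, so array and strain cannot be told apart. As a check of the tissue, hsa-miR-9# (002231), from a neural miRNA, lay at 13.7 to 14.1 cycles in BTBR and at 13.5 to 13.8 cycles in C57BL/6J. The other neuronal assays differed more between mice. The assay hsa-miR-9 (000583) had a reading in 2 BTBR samples only. The assay mmu-miR-124a lay at 19.79 to 23.29 cycles in BTBR and at 24.44 to 31.40 cycles in C57BL/6J. The assay hsa-miR-138 lay at 10.91 to 11.57 cycles in BTBR, against 10.62 and 10.76 cycles in C57BL/6J replicates 1 and 2. Its reading of 9.60 cycles in C57BL/6J replicate 3 was under 10 and so treated as undetermined. The assay hsa-miR-124# (002197) was undetermined in all BTBR mice and was read at 22.74, 21.70 and 13.68 cycles in C57BL/6J. The assay mmu-miR-138# read 12.10, 18.04 and 17.44 cycles in BTBR, against 17.81, 7.81 and 6.39 cycles in C57BL/6J. The readings of 7.81 and 6.39 cycles were also under 10 and so treated as undetermined.

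Detection of the immune miRNAs differed between mice. Of the 13 assays, 7, 9 and 10 were detected in BTBR replicates 1, 2 and 3, against 8, 6 and 5 in C57BL/6J replicates 1, 2 and 3. The assays of miR-146a, miR-150 and the 5p arm of miR-146b (hsa-miR-146b and RNO-MIR-146B) were read in all 6 mice, which makes 4 of 13 assays, against 31.6% of the panel. The assay hsa-miR-223 (000526, pool B) was undetermined in every mouse, as were 38.0% of panel assays, while the second assay of that name (002295, pool A) was read in 5 of 6. Counting every reading below 40 cycles, those under 10 included, readings in at least 1 BTBR and no C57BL/6J sample were found for 4 of the 13 assays, against 15.5% of the panel. These were the assays for miR-21, miR-21#, miR-150# and miR-155, the last of which was read under 10 cycles alone. The reverse, a reading in C57BL/6J only, was found for 0 of the 13, against 3.6%. The endogenous control spots (small noncoding RNAs other than miRNAs) also differed by strain, with 78, 80 and 79 of 80 spots read in BTBR, against 63, 61 and 59 in C57BL/6J. Their mean threshold was 16.87 to 17.92 cycles in BTBR and 18.12 to 18.99 cycles in C57BL/6J. The part of this in the readings found in BTBR alone was not tested.

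**Figure D1:**
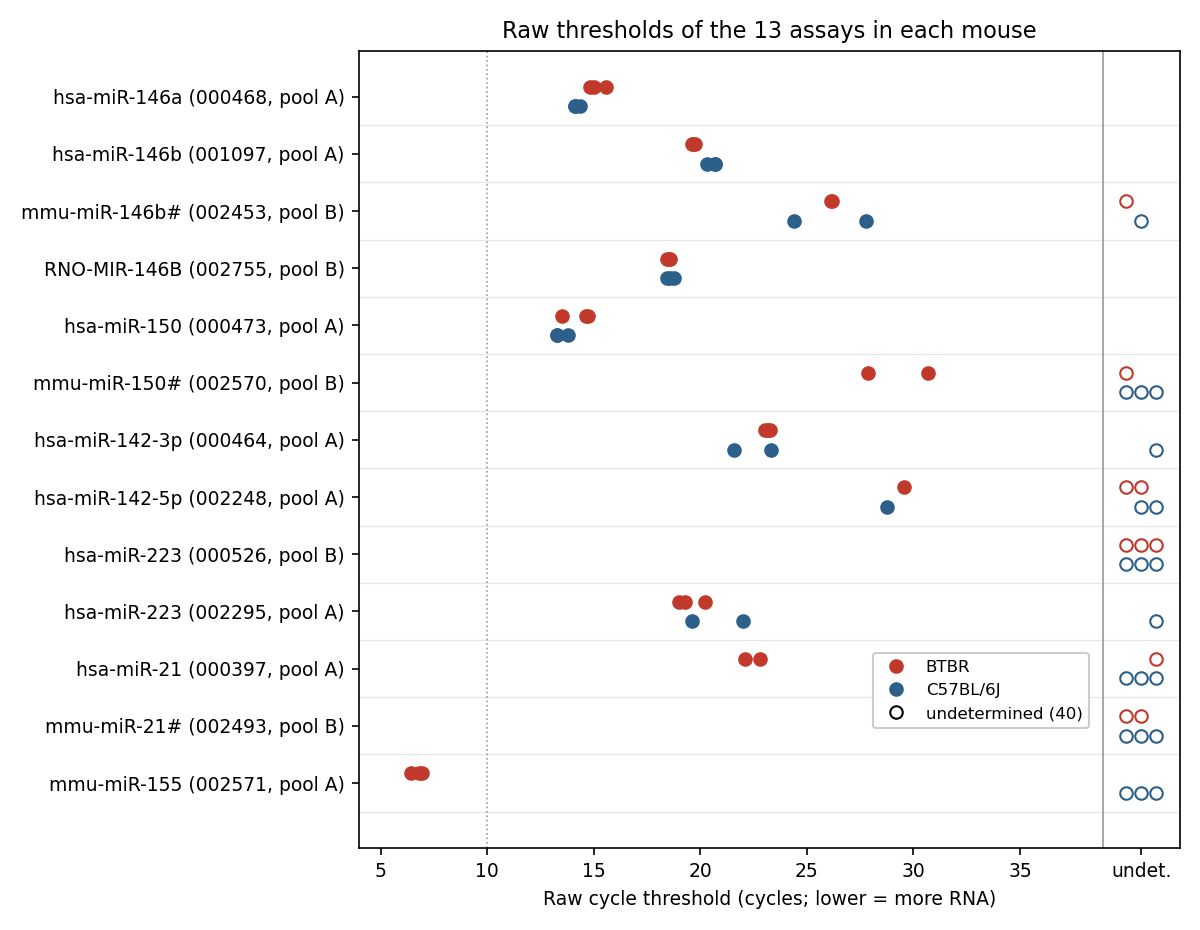
Raw cycle thresholds (x axis, cycles) of the 13 assays (rows) in each mouse, with BTBR in red above C57BL/6J in blue and undetermined reactions as open circles at the right. The dotted line marks 10 cycles; the miR-155 assay lies left of it in the 3 BTBR mice and is undetermined in the 3 C57BL/6J mice.

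MiR-146a, the brake on Toll-like receptor signalling, was the 1 member that passed the test. Its raw Ct (hsa-miR-146a, 000468, pool A) was 15.58, 15.002 and 14.80 cycles in BTBR, against 14.14, 14.34 and 14.12 cycles in C57BL/6J. All BTBR samples were later than all C57BL/6J samples, so the groups did not overlap, as was the case in the same direction for 18.1% of the 237 assays read in all 6 mice. On the authors' normalized scale it stood at 15.29 ± 0.223 cycles in BTBR and 14.30 ± 0.163 cycles in C57BL/6J (SD, n = 3 each). That was 1.99-fold lower in BTBR (log2 change -0.99, standard error 0.28, 95% interval -1.67 to -0.30, limma adjusted p = 0.0396).

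On that scale the panel leaned lower in BTBR. Of 231 assays tested, 35.5% were lower in BTBR and 1.3% higher at an adjusted p of 0.05, and the median log2 change was -1.13. The change of miR-146a lay 0.14 above that median, and 129 of the 231 assays had a more negative one. When the raw Ct values were instead set relative to the sample's mean Ct of the 189 assays with 6 normalized values (the global mean scale), the panel median was -0.18. There miR-146a differed by -1.11 (standard error 0.30, limma adjusted p = 0.0786), which was 0.92 below the median, and 26 of 231 assays had a more negative change. Its groups did not overlap on the global mean scale, with -5.23, -5.29 and -5.87 cycles in BTBR against -6.91, -6.44 and -6.38 cycles in C57BL/6J, as for 21.5% of assays in that direction. Scaling to the control spots gave -2.07 (limma adjusted p = 0.0924), but the panel median there was -1.09, and miR-146a lay 0.98 below it. That scale used the mean of the spots read, which were more in BTBR than in C57BL/6J. Centring the authors' values on sample medians gave 0.19 (limma adjusted p = 0.593), so the call and the sign of miR-146a both depended on the scale. The call was lost without any of BTBR replicates 1 and 2 or the C57BL/6J samples in turn (log2 change -1.08 to -0.91, limma adjusted p from 0.0641 to 0.177), and with the replicate number as a block (-0.99, limma adjusted p = 0.0711). It held without BTBR replicate 3 (log2 change -1.12, limma adjusted p = 0.0336). The authors' deposited table gives miR-146a a ratio of 0.504 with an adjusted p of 0.0343.

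MiR-146b-5p, which differs from miR-146a-5p at 2 bases, was read by a pair of assays. The assay hsa-miR-146b (001097, pool A) had raw Ct values of 19.76, 19.67 and 19.63 cycles in BTBR, against 20.32, 20.71 and 20.70 cycles in C57BL/6J. Here the BTBR samples were all earlier than the C57BL/6J samples, the opposite order to miR-146a, as for 14.3% of the 237 assays. On the global mean scale these groups overlapped, with -1.05, -0.62 and -1.05 cycles in BTBR against -0.72, -0.07 and 0.21 cycles in C57BL/6J. They overlapped on the authors' scale as well. The assay RNO-MIR-146B (002755, pool B) read 18.54, 18.45 and 18.57 cycles in BTBR, against 18.77, 18.43 and 18.59 cycles in C57BL/6J, so that the groups overlapped. Neither passed. On the authors' scale hsa-miR-146b differed by -0.11 (standard error 0.34, 95% interval -0.94 to 0.71, limma adjusted p = 0.788). RNO-MIR-146B differed there by -0.74 (standard error 0.32, 95% interval -1.53 to 0.05, limma adjusted p = 0.117). Scaled to the global mean, the values were 0.71 (standard error 0.33, limma adjusted p = 0.19) for hsa-miR-146b and -0.10 (standard error 0.26, limma adjusted p = 0.817) for RNO-MIR-146B. The sign of hsa-miR-146b thus turned with the scale.

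The other arm of that hairpin, mmu-miR-146b# (002453, pool B), was read late and with gaps. Its raw Ct was 26.14 and 26.16 cycles in BTBR replicates 2 and 3 and undetermined in replicate 1, against 27.79 and 24.38 cycles in C57BL/6J replicates 1 and 3 and undetermined in replicate 2. In the normalized table BTBR replicate 3 was the only BTBR sample that kept a value, so the assay was outside the main test. With all detected raw cells on the global mean scale, an alternative chosen after seeing the data, it differed by -0.35 (95% interval -3.62 to 2.92, limma adjusted p = 0.86). With late readings kept the change was -3.85 (standard error 1.90, limma adjusted p = 0.193), and with 40 kept as a value it was -5.56 (standard error 5.93, limma adjusted p = 0.494). The authors' deposited table gives a ratio of 0.0212 with an adjusted p of 0.56. The size thus depended on how late and undetermined readings were treated, and the assay passed in none of these fits.

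**Figure D2:**
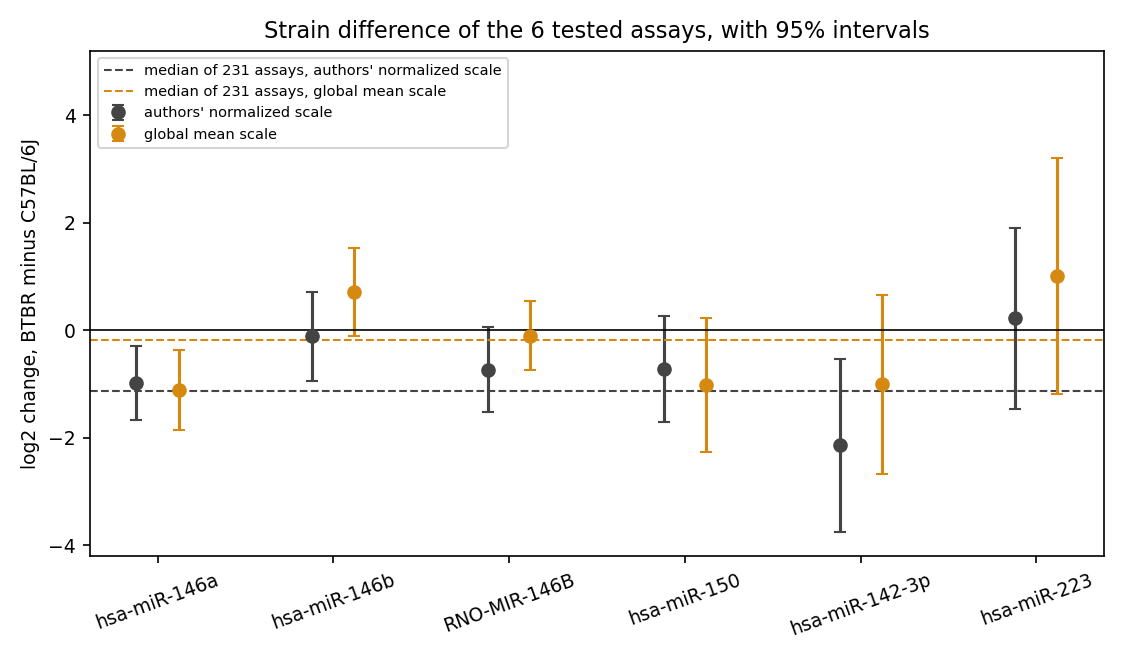
Log2 change (y axis, BTBR minus C57BL/6J) of the 6 tested assays with 95% limma intervals, on the authors' normalized scale (grey) and the global mean scale (orange). Dashed lines are the medians of the 231 tested assays, at -1.13 and -0.18; hsa-miR-146a, RNO-MIR-146B, hsa-miR-150 and hsa-miR-142-3p are negative on both scales, hsa-miR-223 is positive on both, and hsa-miR-146b is on either side of 0.

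The raw difference between a pair of assays within a sample is not changed by a constant added to all thresholds of that sample, but quantile normalization can change it. The raw Ct of hsa-miR-146a minus that of hsa-miR-146b, which are both in pool A, was -4.18, -4.67 and -4.82 cycles in BTBR, against -6.18, -6.37 and -6.58 cycles in C57BL/6J. The groups did not overlap, and relative to miR-146b, miR-146a was 3.53-fold lower in BTBR (strain difference 1.82 cycles, standard error 0.23; exact two-sided permutation p = 0.1, the smallest that 3 against 3 can give; 0.2 adjusted over 6 pairs). Set against RNO-MIR-146B, the same difference was -2.96, -3.45 and -3.77 cycles in BTBR, against -4.64, -4.09 and -4.46 cycles in C57BL/6J. That gave 2.01-fold (1.00 cycles, standard error 0.28; exact permutation p = 0.1, adjusted 0.2), again without overlap. On the authors' normalized values the strain differences were 0.88 and 0.25 cycles. Over all 27966 pairs among the 237 assays read in all mice, 31.0% did not overlap and 28.1% differed between strains by at least as much as miR-146a minus hsa-miR-146b, so a separation of this size was common in the panel.

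The 2 assays of miR-146b-5p did not keep the same distance in both strains, though the test could not pass at this size. The raw Ct of hsa-miR-146b minus that of RNO-MIR-146B was 1.22, 1.22 and 1.06 cycles in BTBR, against 1.54, 2.28 and 2.12 cycles in C57BL/6J, a strain difference of -0.81 cycles (standard error 0.23; exact permutation p = 0.1, adjusted 0.2), without overlap, as for 31.0% of all pairs. The assays name the same arm but differ in species of design and in pool. The median raw log2 change was -0.11 over the 152 assays of pool A read in all mice and 0.08 over the 85 of pool B. The part of the pools in this difference was not tested. The 3 pairs with mmu-miR-146b# had 2 values per strain and overlapped (exact permutation p = 1.0 each).

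**Figure D3:**
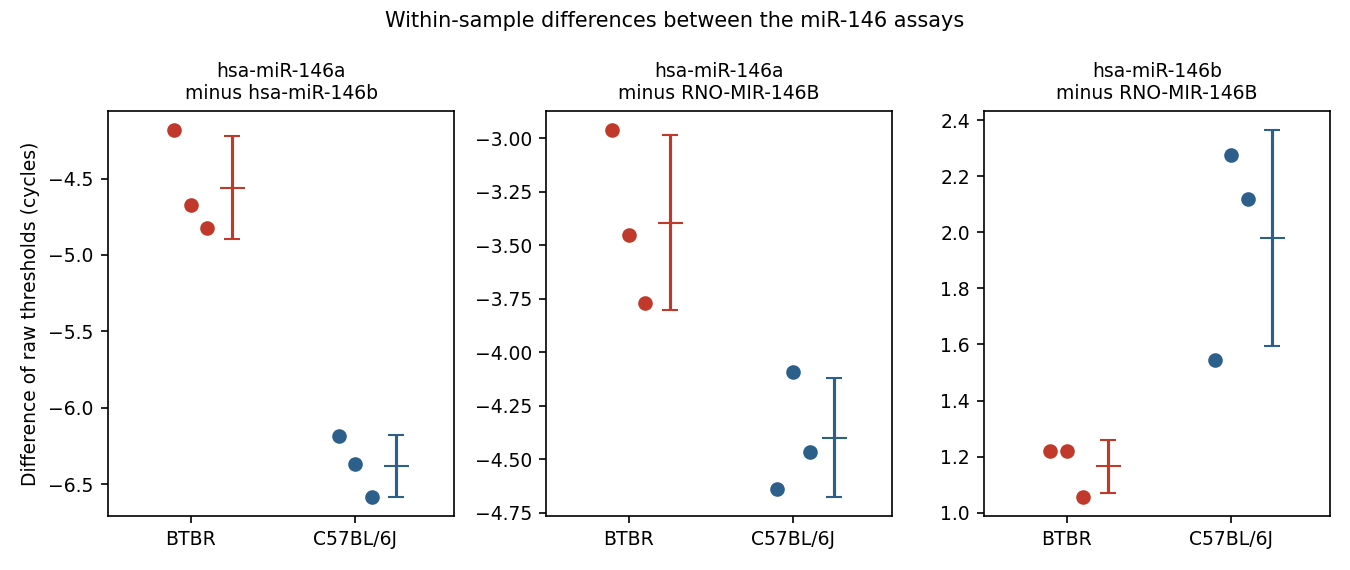
Raw cycle threshold of one miR-146 assay minus that of another in the same sample (y axis, cycles), with a point per mouse and the mean ± SD beside them (n = 3 per strain). In all 3 panels the BTBR mice (red) lie apart from the C57BL/6J mice (blue), by 1.82, 1.00 and -0.81 cycles from left to right.

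MiR-150, known from lymphocytes, did not pass. Its raw Ct (hsa-miR-150, 000473, pool A) was 14.65, 14.71 and 13.52 cycles in BTBR, against 13.29, 13.29 and 13.78 cycles in C57BL/6J. BTBR replicate 3 lay among the C57BL/6J samples, and the other BTBR mice were later than all of them. The change was -0.72 on the authors' scale (95% interval -1.71 to 0.27, limma adjusted p = 0.192), and scaled to the global mean it was -1.02 (95% interval -2.27 to 0.22, limma adjusted p = 0.207). Scaled to the control spots it was -1.99 (limma adjusted p = 0.0924), and centred on sample medians it was 0.45 (limma adjusted p = 0.432), so its size and sign depended on the scale. Against the panel median it lay 0.41 higher on the authors' scale, and 0.84 and 0.89 lower on the global mean and control-spot scales. The opposite arm, mmu-miR-150# (002570, pool B), was read at 30.69 and 27.88 cycles in BTBR replicates 2 and 3 and was undetermined in the other 4 mice.

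MiR-142-3p, from blood-derived cells, was close to the threshold on the authors' scale. Its raw Ct (hsa-miR-142-3p, 000464, pool A) was 23.29, 23.02 and 23.16 cycles in BTBR, against 21.60 and 23.34 cycles in C57BL/6J replicates 1 and 2 and no reading in replicate 3. The BTBR values lay between those of the C57BL/6J mice. With the undetermined sample left out, the change was -2.14 on the authors' scale (standard error 0.62, 95% interval -3.75 to -0.53, limma adjusted p = 0.051), and 33 of 231 assays had a more negative one. Scaled to the global mean it was -1.0 (standard error 0.64, limma adjusted p = 0.335). In the authors' deposited table, where 40 counts as a number, the sign is the opposite, a ratio of 15.1 with an adjusted p of 0.661. The 5p arm (hsa-miR-142-5p, 002248, pool A) was read at 29.57 cycles in BTBR replicate 3 and at 28.78 cycles in C57BL/6J replicate 1, and in no other mouse.

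MiR-223, from myeloid cells, did not pass either. Its raw Ct (hsa-miR-223, 002295) was 20.21, 18.99 and 19.30 cycles in BTBR, against 19.63 and 22.01 cycles in C57BL/6J replicates 1 and 2, with replicate 3 again undetermined. The groups overlapped, and the C57BL/6J readings lay further apart than those of BTBR. The change was 0.22 on the authors' scale (95% interval -1.47 to 1.91, limma adjusted p = 0.788), and scaled to the global mean it was 1.00 (95% interval -1.19 to 3.20, limma adjusted p = 0.458). The authors' deposited table gives a ratio of 112 with an adjusted p of 0.533, from a C57BL/6J mean of 26.8 cycles that includes the undetermined sample at 40.

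**Figure D4:**
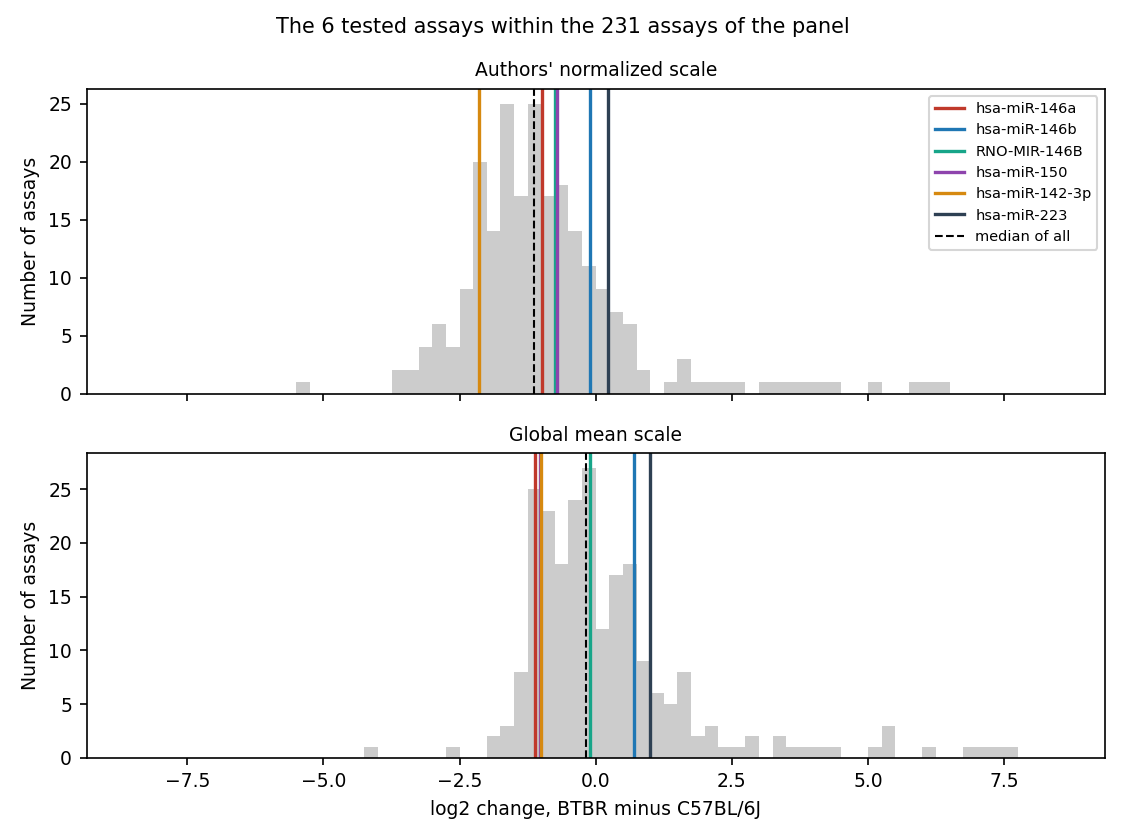
Number of assays (y axis) by log2 change (x axis, BTBR minus C57BL/6J) for the 231 tested assays, on the authors' normalized scale (top) and the global mean scale (bottom), with a coloured line for each of the 6 tested immune miRNA assays and a dashed line at the panel median. On the top scale hsa-miR-142-3p is the 1 immune assay clearly below the median of -1.13, while on the bottom scale hsa-miR-146a, hsa-miR-150 and hsa-miR-142-3p lie 0.82 to 0.92 below the median of -0.18.

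MiR-155 and miR-21, both induced by inflammatory activation, were outside the test. The raw Ct of mmu-miR-155 (002571, pool A) was 6.42, 6.77 and 6.93 cycles in BTBR, and it was undetermined in all C57BL/6J mice. It was the 1 assay of 750 (0.133%) with readings under 10 in every BTBR mouse and none in C57BL/6J, and 1.47% of assays had any reading under 10. Such readings are set to undetermined in the authors' steps, so no fold was computed. The files do not settle whether these early readings reflect RNA or the array. The assay hsa-miR-21 (000397, pool A) was read at 22.81 and 22.11 cycles in BTBR replicates 1 and 2 and was undetermined in BTBR replicate 3 and in all C57BL/6J mice. Its other arm, mmu-miR-21# (002493, pool B), was read once, at 30.27 cycles in BTBR replicate 3. An undetermined reaction gives neither a fold nor a direction.

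Taking the tested members together, 1 of 6 was lower, 0 were higher and 5 did not pass on the authors' scale, against 35.5% lower and 1.3% higher over the panel, with a median change of -0.73 against -1.13 for the panel. On the global mean scale 0 of 6 passed (0.433% of the panel did) and the median was -0.55 against -0.18. There hsa-miR-146a had an unadjusted limma p of 0.0111, and the other 5 had an unadjusted p above the threshold. Over the panel, 69 of 231 assays had an unadjusted limma p under 0.05 on that scale, so such a value was common. The members' median thus lay above that of the panel on the first scale and below it on the second.

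Of a further list of 11 miRNAs that act on innate immune signalling or lymphocytes or keep microglia quiescent, 14 assays were on the panel and 8 were tested. On the authors' scale 2 were lower, 0 higher and 6 did not pass, against 35.5% lower over the panel, and the list's median change was -0.35. The assays that fell were mmu-miR-326 (log2 change -2.03, standard error 0.47, limma adjusted p = 0.0301), from a miRNA that promotes Th17 cells, and rno-miR-125b# (-2.04, standard error 0.46, limma adjusted p = 0.0301). Scaled to the global mean they were at -0.80 and -0.34, and 0 of 8 passed. The assay hsa-miR-125b, of the other arm, did not pass on the authors' scale (-0.61, limma adjusted p = 0.193) or the global mean scale (-1.06, limma adjusted p = 0.146). The assay mmu-miR-125b#, outside the test, read 28.02, 25.93 and 26.21 cycles in BTBR. In C57BL/6J it read 26.28, 26.21 and 27.30 cycles, so the groups overlapped. Among the rest the changes of hsa-miR-181a, which tunes T cell receptor signalling, and mmu-miR-124a, linked to microglial quiescence, were the largest (5.05, standard error 1.77, and 1.97, standard error 0.95), and neither passed. Scaled to the global mean they were at 6.97 (limma adjusted p = 0.0737) and 3.30 (limma adjusted p = 0.115). The lymphocyte miRNA hsa-miR-342-3p was read at 13.36, 14.52 and 16.81 cycles in BTBR and was undetermined in all C57BL/6J mice, a pattern shared by 4.0% of the panel. The reverse pattern, which 0.4% of the panel showed, was that of hsa-miR-124# on the same list. The macrophage miRNA mmu-miR-511 was read once, at 39.24 cycles in BTBR replicate 3.

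Markers of blood and vessels varied beside these values, and the 2 that could be tested, mmu-miR-451 and hsa-miR-126, did not pass on either scale. The erythroid mmu-miR-451 was read at 20.72, 19.98 and 19.74 cycles in BTBR, against 21.10, 21.18 and 21.43 cycles in C57BL/6J, without overlap, as for 14.3% of assays in that direction. It did not pass on the authors' scale (log2 change -0.21, limma adjusted p = 0.64) or when scaled to the global mean (0.90, limma adjusted p = 0.161). The erythroid hsa-miR-486 was read at 16.66, 16.62 and 15.20 cycles in BTBR and was undetermined in all C57BL/6J mice, a pattern found in 4.0% of the panel, and HSA-MIR-144 was undetermined in all mice. Summed over the 3 erythroid assays as 2 to the power of the global mean minus the Ct, with undetermined reactions counted as 0, the level ranged from 14.0 to 46.5 in BTBR and from 0.525 to 0.96 in C57BL/6J. In C57BL/6J hsa-miR-486 thus added 0, so these sums describe detection as much as level and give no fold. The same sum for the endothelial miR-126 assays ranged from 6.16 to 20.1 in BTBR and from 3.27 to 8.55 in C57BL/6J, with hsa-miR-126 read at 16.47 to 18.06 cycles in BTBR against 17.82 to 19.07 cycles in C57BL/6J. The other assay, hsa-miR-126#, was read at 20.59, 22.78 and 28.96 cycles in BTBR. In C57BL/6J it was read in replicate 3 only, at 32.10 cycles. The oligodendrocyte assays read in all mice were hsa-miR-219 (25.86 to 26.99 cycles in BTBR, 25.11 to 27.88 cycles in C57BL/6J), hsa-miR-338 (27.56 to 27.74 cycles in BTBR, 25.25 to 26.76 cycles in C57BL/6J) and hsa-miR-338-3p (25.69 to 28.09 cycles in BTBR, 24.76 to 26.36 cycles in C57BL/6J). Of these, hsa-miR-338-3p was lower in BTBR on the authors' scale (log2 change -3.08, limma adjusted p = 0.0336) and did not pass when scaled to the global mean (-0.75, limma adjusted p = 0.4). The remaining oligodendrocyte assay, HSA-MIR-338-5P, was read at 38.903 and 33.645 cycles in BTBR replicates 1 and 2 and was undetermined in all other mice. The sum over the 4 oligodendrocyte assays ranged from 0.0292 to 0.0614 in BTBR and from 0.0931 to 0.113 in C57BL/6J. Undetermined reactions again counted as 0, and these sums give no fold. The part of blood cells in the values of miR-142, miR-150 and miR-223 was not tested.

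For each member read in all mice, the assays with the most similar profile over the 6 samples were found on the global mean scale among 236 others, as a description. The profile of hsa-miR-146a was closest to those of hsa-miR-532-3p (Pearson r = 0.983) and hsa-miR-19b (0.981), and that of hsa-miR-150 to those of mmu-miR-151 (0.991) and hsa-miR-26b (0.984). The profile of hsa-miR-146b was closest to those of mmu-miR-134 (0.963) and hsa-miR-26b# (0.943), and that of RNO-MIR-146B to those of mmu-miR-685 (0.875) and hsa-miR-34a (0.85). The assays of miR-146b-5p did not name each other. These are the highest of 236 values, each over 6 samples that share the same global means.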

How the data were processed

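RNA of prefrontal cortex was purified on columns, and 100 ng per sample with an RNA integrity number of 9 went through reverse transcription, pre-amplification and real-time PCR, per the labels' protocols. The authors deposited raw and, per the file headers, quantile-normalized cycle thresholds and a table with a ratio (fold) of BTBR to C57BL/6J, the difference of mean thresholds on a log2 scale with the sign turned, a test statistic (a score) and p-values. The authors' deposited normalized table holds 306 assays, 7 of them among the 13 described. Rebuilding it from the raw table gave the 1585 deposited values below 40 within 3.33e-09 cycles. For this, readings under 10 were set to 40 and 340 assays were ranked with 40 as a value. The highest deposited value below 40 was 29.19. The step that set other readings to 40 was not rebuilt, and the deposited values of 40 were not compared.

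Here 40 was treated as missing. Assays with at least 2 values per strain (231) were tested on minus the normalized threshold in limma 3.58.1 (lmFit, eBayes; R 4.3.3), fitting strain alone, Benjamini-Hochberg adjustment over all assays and a threshold of 0.05. The test was checked on simulated data. These data had independent noise per assay and no shift shared by the assays of a sample. They therefore do not cover the dependence on scale given below. Changes are BTBR minus C57BL/6J. Pairs of assays were compared with exact two-sided permutation tests (SciPy 1.17.1). Of 10 pairs of arms, repeat assays or miR-146a with miR-146b, 6 had enough readings. Alternatives were other scalings, 40 kept as a value, other filters, a replicate block and leaving out each mouse. Every member assay is named. From the further immune list, those that passed and the 4 largest changes are named. The assays hsa-miR-342-3p, mmu-miR-511, hsa-miR-124#, hsa-miR-125b and mmu-miR-125b# were named after their values were seen. The members and lists were chosen with earlier results of these data known. Cycle thresholds carry no read depth, so the number of mice (3 per strain) and the single PCR of each assay set the precision.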

Additional observations from a re-analysis of the deposited data

Results flagged for a closer look

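Readings in BTBR with none in C57BL/6J were found for 4 assays outside the tested ones. The assay mmu-miR-155 (002571) had a mean raw threshold of 6.71 cycles in 3 BTBR mice, under the 10 cycles below which the authors' table keeps no reading. The assay hsa-miR-21 (000397) had a mean of 22.46 cycles in 2 BTBR mice, and mmu-miR-150# (002570) had a mean of 29.28 cycles in 2. The assay mmu-miR-21# (002493) was read in 1 BTBR mouse, at 30.27 cycles. Over the panel, 116 of 750 assays (15.5%) had this pattern, and 27 (3.6%) had the reverse one.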

How the results depend on the processing

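The counts of assays that passed depended on scale and on single mice. Of all assays tested, 85 passed an adjusted p of 0.05, against 1 on the global mean scale or with control spots, 0 without centring or with all detected raw cells (unadjusted p under 0.05 in limma for 49 and 70 assays), and 2 after centring on sample medians. Leaving out 1 mouse gave 0 to 101 (0 without BTBR replicate 1 or C57BL/6J replicate 3, where 89 and 99 had an unadjusted p under 0.05 in limma, 3 without C57BL/6J replicate 2, 8 without BTBR replicate 2, 101 without BTBR replicate 3), and on the global mean scale 0 to 46, with 46 without BTBR replicate 3. Of the members, 1 passed (miR-146a), against 0 on the global mean scale, without centring, with control spots, centred on sample medians, with the replicate block, with all detected raw cells or with late readings kept; leaving out 1 mouse gave 0 to 1, also on the global mean scale, where miR-146a passed without BTBR replicate 3 (-1.31, limma adjusted p = 0.0358). Its adjusted p otherwise ran up to 0.593. With late readings kept it was 0.0526, with more assays tested (270). With 40 kept as a value, 96 of 306 assays passed.

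With the replicate block 49 assays passed and miR-146a had an adjusted p of 0.0711. Deviations of same-numbered mice correlated at 0.08, 0.42 and 0.00. BTBR replicates 1 and 2 each correlated best with the same-numbered C57BL/6J mouse, and BTBR replicate 3 with C57BL/6J replicate 1 (0.26). These values do not settle whether the numbers name pairs, and the main test did not use them as pairs.

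Signs turned for miR-142-3p with 40 kept (3.91), and after centring on sample medians for miR-146a (0.19), miR-150 (0.45), hsa-miR-146b (1.06) and RNO-MIR-146B (0.44). They also turned for hsa-miR-146b on the global mean scale (0.71), with all detected raw cells (0.71), without centring (0.89) and without BTBR replicate 2 (0.13; leaving out 1 mouse gave -0.34 to 0.13), and for RNO-MIR-146B without centring (0.08). On the authors' values the strain difference of miR-146a minus hsa-miR-146b was 0.88 cycles, minus RNO-MIR-146B 0.25 and minus mmu-miR-146b# -1.23. The value of -1.23 rested on 1 BTBR mouse and 2 C57BL/6J mice, and the raw difference of that pair was 0.71 cycles. The causes were not tested. Interpolating late readings changed 0 cells. The late readings kept, all detected raw cells and the global mean scale without single mice were chosen after seeing the data.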
